A study of Mus musculus with 56 samples.

Results

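The 10 transcripts described here encode the enzymes of de novo lipogenesis and the factors that regulate them: Acly, Acaca, Fasn, Elovl6, Scd1, Scd2, Srebf1, Mlxipl, Thrsp and Mid1ip1. They were chosen by name, for their known roles. All 10 were found among the 25939 genes measured, and all 10 were among the 15738 genes with a mean of at least 0.5 CPM (reads of a gene scaled to a common library size) over the libraries, which were the genes tested. None of the tests was restricted to the 10 genes, and every adjusted p-value was corrected over all genes tested.

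The tissue was visceral fat (visceral adipose tissue, VAT), taken for RNA-seq from 56 C57BL/6J mice, all female and aged 9 weeks. After 7 days of entrainment with chow always present, the mice received chow only during the day (daytime-restricted feeding, DRF) or only during the night (nighttime-restricted feeding, NRF) for 7 days. Tissue was taken at 7 zeitgeber times (ZT, hours after lights on), namely ZT0, ZT4, ZT8, ZT12, ZT16, ZT20 and ZT24, from 4 mice per regimen and time, so each regimen held 28 libraries and each mouse gave 1 time point. NRF was the reference, and the comparison asks how an inverted food schedule changes the daily course of transcripts in this tissue. Lights went off at ZT12, so that ZT20 fell in the food phase of NRF and in the fasting phase of DRF, and ZT8 the reverse. Both regimens restricted food. Libraries of VAT from mice with free access to food were not analysed here, and the hours of food access within the day or night are not given in the sources used here.

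De novo lipogenesis turns glucose carbon into fatty acids. Citrate that leaves the mitochondria is cleaved to acetyl-CoA, acetyl-CoA carboxylase forms malonyl-CoA from it, and fatty acid synthase builds palmitate, which elongases lengthen and stearoyl-CoA desaturases turn into monounsaturated fatty acids. In fat and liver the pathway is known to be induced by refeeding, by insulin through SREBP-1c (the product of Srebf1) and by sugar metabolites through ChREBP (the product of Mlxipl), and to be shut down by fasting.

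The libraries held 33434918 to 45136762 reads on genes. Adipocyte markers were high throughout, with a mean over 8 genes of 9.20 to 10.87 in DRF and 10.02 to 10.67 in NRF on the log2(CPM + 1) scale, which is the scale of all levels below unless another is named. In DRF ZT8 replicate 1 and DRF ZT0 replicate 4 this mean was lowest, at 9.20 and 9.73, and a mean over 5 epithelial markers was 6.23 and 7.16 against a median of 1.62 over the DRF libraries. NRF ZT24 replicate 4 held liver transcripts, with a mean over 5 markers of 6.26 against a median of 1.10 in NRF, and Ttr among them was at 0 in 34 of the 56 libraries. Skeletal muscle markers (4 genes) also varied, with medians of 1.82 in DRF and 1.89 in NRF and highest values of 6.08 in DRF ZT16 replicate 2 and 6.44 in NRF ZT8 replicate 4. The part of muscle RNA in the results was not tested. For part of the results, values or counts without the libraries low in adipocyte or high in liver transcripts are given beside them. In bulk tissue, fewer cells of a type and less RNA per cell cannot be told apart.

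The promoters of the transcription factor genes, of Fasn and of Mid1ip1 are shown as examples from the regulators and the enzymes, with 1 of the 3 Srebf1 promoters in the table. RefSeq promoters (GRCm38.p6, 250 bases before to 50 bases after a transcription start) were available for 8 of the 10 genes, as 11 promoters; Scd1 and Scd2 had no entry. Each sequence is the 250 bases before the start, read 5′ to 3′ on the gene's strand, with motif matches on either strand in capitals. The E-box was searched as CACGTG and the sterol regulatory element as TCACNCCAC. The GC box was searched as GGGCGG, and the CCAAT box by the letters of its name.
Mlxipl upstream start, chr5:135089640-135089889, plus strand: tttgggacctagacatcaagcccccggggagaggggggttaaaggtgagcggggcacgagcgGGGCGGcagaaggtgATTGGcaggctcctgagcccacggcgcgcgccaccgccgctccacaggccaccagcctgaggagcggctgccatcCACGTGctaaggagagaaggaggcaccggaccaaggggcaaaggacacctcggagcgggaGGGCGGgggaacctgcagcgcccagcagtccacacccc
Mlxipl internal start, chr5:135106641-135106890, plus strand: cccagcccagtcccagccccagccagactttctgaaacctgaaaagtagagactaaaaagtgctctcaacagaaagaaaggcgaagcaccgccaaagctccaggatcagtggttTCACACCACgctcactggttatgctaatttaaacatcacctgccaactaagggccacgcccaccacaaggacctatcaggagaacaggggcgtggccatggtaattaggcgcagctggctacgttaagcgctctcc
Srebf1 downstream start, chr11:60210472-60210721, minus strand: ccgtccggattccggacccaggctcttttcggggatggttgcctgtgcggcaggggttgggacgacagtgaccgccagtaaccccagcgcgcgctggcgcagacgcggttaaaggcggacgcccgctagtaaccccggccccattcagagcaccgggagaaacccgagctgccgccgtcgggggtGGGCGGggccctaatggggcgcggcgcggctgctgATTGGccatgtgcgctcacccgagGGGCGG
Fasn, chr11:120824548-120824797, minus strand: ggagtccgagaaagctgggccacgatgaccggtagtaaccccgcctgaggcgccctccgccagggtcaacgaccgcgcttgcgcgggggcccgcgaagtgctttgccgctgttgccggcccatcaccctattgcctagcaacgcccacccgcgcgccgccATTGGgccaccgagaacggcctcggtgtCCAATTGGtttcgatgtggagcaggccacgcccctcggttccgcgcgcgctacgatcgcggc
Mid1ip1, chrX:10717115-10717364, plus strand: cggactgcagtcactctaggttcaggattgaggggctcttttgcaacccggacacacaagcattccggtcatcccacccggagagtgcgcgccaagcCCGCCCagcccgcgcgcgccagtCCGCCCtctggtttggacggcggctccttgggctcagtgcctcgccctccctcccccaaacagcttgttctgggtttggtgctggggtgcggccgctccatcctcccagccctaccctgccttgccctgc
The sterol regulatory element letters were found in 1 of the 11 promoters, the one at the internal Mlxipl start, where TCACACCAC ran from position -136 to -128 relative to the start. They were present in 1.24% of all 32851 promoters in the table. CACGTG was found at positions -98 to -93 of the upstream Mlxipl promoter and in 7.15% of all promoters, and the strict palindromic carbohydrate response element, a pair of E-boxes with a spacer, was found in none of the 32851. GC box letters occurred in promoters of Acly, Mid1ip1, Mlxipl and Srebf1 (35.7% of all promoters), and CCAAT letters in those of Acly, Fasn, Mlxipl, Srebf1 and Thrsp (37.4%). The D-box letters TTACGTAA, present in 0.119% of all promoters, were in none of the 11. In Fasn the capitals CCAATTGG hold a CCAAT box on each strand, which overlap by their central bases. A match is a description of the letters and not of a bound site.

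Per kilobase of exon, Scd1 was the most abundant of the 10 transcripts, with a median of 17432 CPM per kb in DRF and 9982 in NRF. In the order of the DRF medians, Thrsp followed with 2787 and 2188, Fasn with 2467 and 2238, and Acly with 1369 and 1166 CPM per kb. In NRF the median of Fasn was above that of Thrsp. Acaca (298 and 253), Elovl6 (285 and 213) and Scd2 (285 and 186) formed a middle tier whose ranges over mice overlapped. The regulators were lowest, with Srebf1 at 105 and 136, Mid1ip1 at 44.8 and 65.1 and Mlxipl at 29.7 and 37.2 CPM per kb. The 10 genes together took 5.81% ± 3.92 of all reads on genes (SD, n = 4) at NRF ZT8, the lowest group mean, with single mice from 1.18% to 10.4%. They took 11.4% ± 0.83 at NRF ZT20, and in DRF between 10.6% ± 1.64 at ZT0 and 15.0% ± 0.63 at ZT16. Scd1 alone made up 0.9% to 9.77% of a library's reads. The levels of Scd1, and with them the summed share, rest on an assumed exon length, that of its longest annotated transcript.

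**Figure D1:**
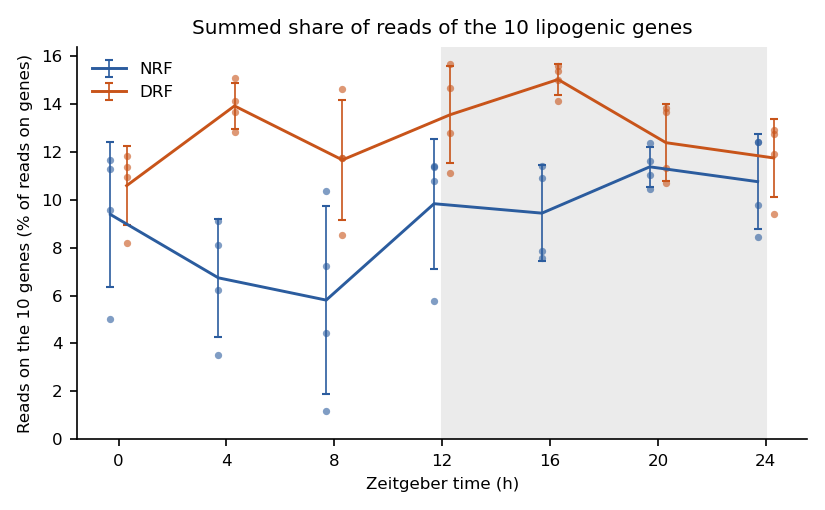
Summed reads on the 10 lipogenic genes as a percentage of all reads on genes (vertical axis) by zeitgeber time in hours (horizontal axis); points are mice, lines join group means, bars are 1 SD (n = 4) and grey marks the dark phase. The NRF mean is lowest at ZT8 (5.81%), where the 4 mice lie between 1.18% and 10.4%, and the DRF mean lies above the NRF mean at every time point.

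The group mean was highest at ZT20 in NRF for 9 of the 10 genes and lowest at ZT8 for the same number, with Srebf1 (highest at ZT16, lowest at ZT4) the exception in both. In DRF the highest group mean fell at ZT16 for Acly, Acaca, Fasn, Elovl6 and Scd1, at ZT12 for Scd2 and Mlxipl, and at ZT4 for Srebf1, Thrsp and Mid1ip1. The range between the highest and the lowest group mean was wider in NRF than in DRF for every one of the 10 genes, from 1.11 against 0.61 log2 units for Scd1 to 3.80 against 1.62 for Acly and 3.82 against 2.40 for Scd2. The share of all genes with a wider range in NRF is not given here. Such a range also holds scatter between mice, and it was not tested.

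**Figure D2:**
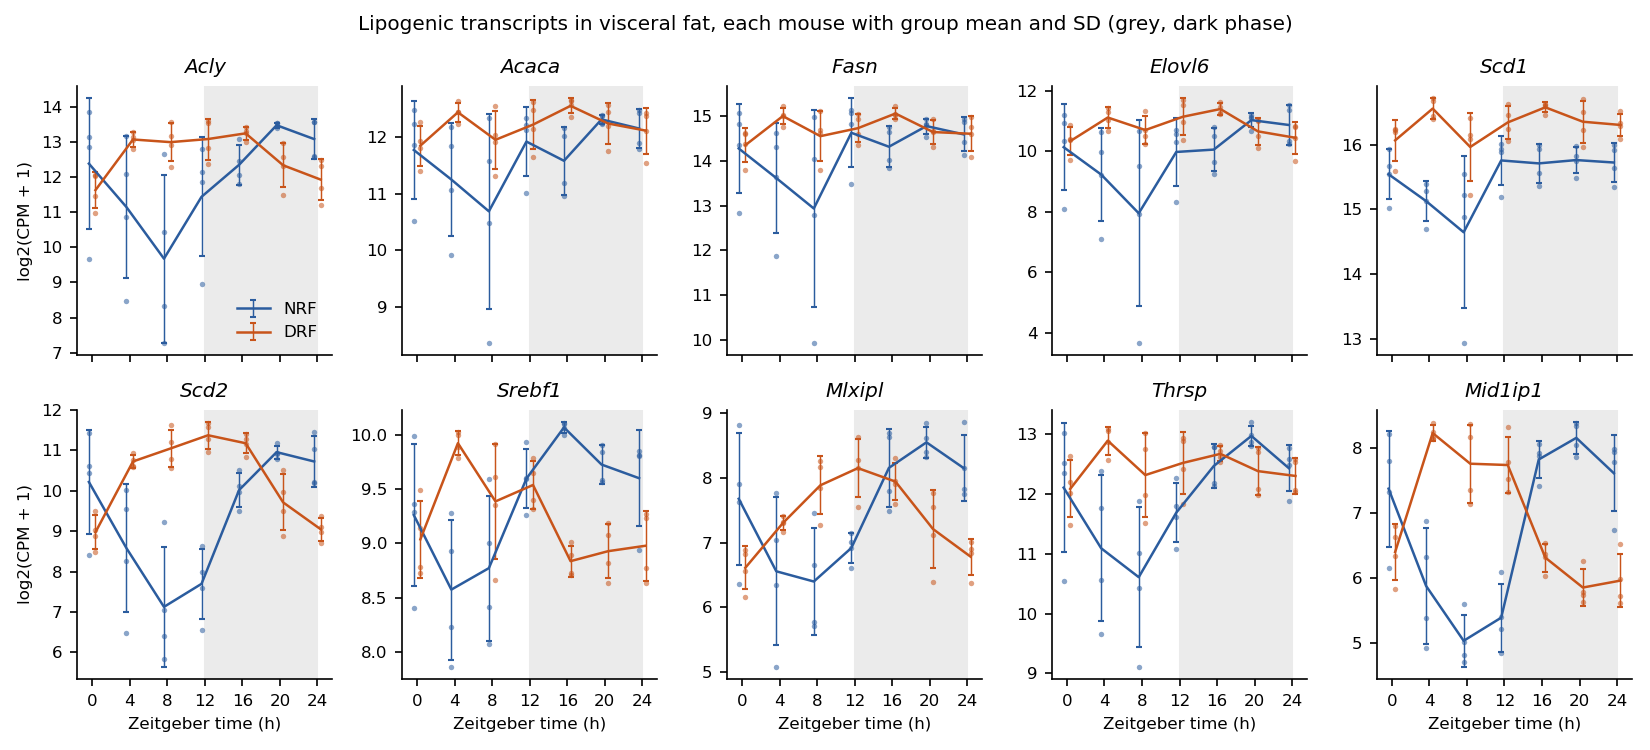
Level of each of the 10 transcripts as log2(CPM + 1) (vertical axis, own scale per gene) by zeitgeber time in hours (horizontal axis) in NRF and DRF; points are mice, lines join group means, bars are 1 SD (n = 4) and grey marks the dark phase. Mid1ip1 and Scd2 cross between the regimens, whereas Fasn and Acaca stay within a narrow band in DRF and drop in single NRF mice by day.

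Acly encodes ATP citrate lyase, which makes cytosolic acetyl-CoA from citrate (chr11:100476353-100528000, minus strand, GRCm38, as are all gene positions below). Its level in the 4 mice at NRF ZT8 was 10.43, 7.27, 12.67 and 8.33. At NRF ZT20 it was 13.45, 13.53, 13.54 and 13.38. The groups did not overlap, and the night-time mice lay close together while the daytime mice were widely scattered. The difference was 3.80 ± 0.78 (SE), 13.9-fold, with an adjusted p of 0.00015 (limma), and 3.00 without ZT8 replicate 2 (adjusted p = 0.0033). In DRF the level was 12.29, 12.93, 13.18 and 13.58 at ZT8 and 12.33, 12.58, 12.96 and 11.48 at ZT20. These groups overlapped, and the difference of 0.66 ± 0.78 was not called (adjusted p = 0.59). The lowest DRF group was ZT0, at 11.63 ± 0.52 (SD, n = 4).

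Acaca encodes acetyl-CoA carboxylase, the committed step that forms malonyl-CoA (chr11:84129672-84401651, plus strand). The NRF mice had 11.58, 8.35, 12.33 and 10.49 at ZT8 and 12.40, 12.38, 12.26 and 12.23 at ZT20. Replicate 3 at ZT8 reached the night-time level, so the groups overlapped, and replicate 2 was lowest. The ZT20 group was higher by 1.63 ± 0.47, 3.09-fold, with an adjusted p of 0.0057. Without ZT8 replicate 2 the difference was 0.85 and was no longer called (adjusted p = 0.12). In DRF all 28 mice lay between 11.31 and 12.66, and ZT8 minus ZT20 was -0.29 ± 0.47 (adjusted p = 0.71).

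Fasn encodes fatty acid synthase, the multienzyme that builds palmitate (chr11:120805846-120824547, minus strand). Its level at NRF ZT8 was 14.04, 9.93, 14.97 and 12.80, against 14.83, 14.93, 14.81 and 14.54 at NRF ZT20. Replicate 3 lay above every night-time mouse and replicate 2 far below them, at 971 CPM against at least 23810 CPM in every ZT20 mouse. The difference was 1.84 ± 0.60, 3.59-fold (adjusted p = 0.014), and 0.84 without ZT8 replicate 2 (adjusted p = 0.23). In DRF the 28 mice lay between 13.79 and 15.22. The highest group mean was 15.06 ± 0.12 at ZT16 and the lowest 14.35 ± 0.38 at ZT0 (SD, n = 4). These groups did not overlap, and the difference between them was not tested.

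Elovl6 encodes the elongase that lengthens palmitate to stearate (chr3:129532355-129638495, plus strand). At NRF ZT8 the mice had 9.52, 3.66, 10.68 and 7.93, and at NRF ZT20 11.19, 11.12, 10.68 and 11.11. The ZT8 mice ran from 11.6 CPM to 1642 CPM, so the highest of them met the lowest night-time mouse while the lowest held the least Elovl6 of all 56 mice. The difference was 3.08 ± 0.76, 8.44-fold (adjusted p = 0.0012), and 1.65 without ZT8 replicate 2, where it was still called (adjusted p = 0.035). In DRF the mice had 10.25, 10.69, 10.51 and 11.34 at ZT8 and 10.49, 10.99, 11.02 and 10.11 at ZT20, overlapping groups that differed by 0.04 ± 0.76 (adjusted p = 0.98).

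Scd1 encodes the main stearoyl-CoA desaturase of adipose tissue, which makes oleate from stearate (chr19:44394455-44407879, minus strand). Its level at NRF ZT8 was 15.21, 12.93, 15.55 and 14.89, and at NRF ZT20 15.75, 15.98, 15.49 and 15.82. The groups overlapped and the difference of 1.11 ± 0.54 was not called (adjusted p = 0.10). Scd1 stood at the top of the abundance range, where limma's trend of the spread with abundance gave it a wide standard error. Without that trend, an alternative chosen after seeing the data, the standard error was 0.29 and the difference was called (adjusted p = 0.0025). With the spread of the NRF groups alone the standard error was 0.61 and the difference was not called (adjusted p = 0.15). That fit kept the abundance trend, so it is not a separate check on the trend. In DRF the level stayed high, at 15.21 to 16.41 at ZT8 and 15.97 to 16.70 at ZT20. The lowest DRF mouse was ZT8 replicate 1 and the next lowest ZT0 replicate 4, at 15.59, the libraries with the fewest adipocyte transcripts.

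Scd2 encodes a second stearoyl-CoA desaturase (chr19:44293674-44306864, plus strand), and its daily course was the steepest of the enzymes. At NRF ZT8 the mice had 7.05, 5.84, 9.22 and 6.40, and at NRF ZT20 10.92, 11.17, 10.78 and 10.94. The groups did not overlap, and the difference was 3.82 ± 0.54, 14.2-fold (adjusted p = 3.7e-07). In DRF the order was the other way, with 10.56, 10.79, 11.20 and 11.62 at ZT8 and 9.50, 9.96, 10.51 and 8.87 at ZT20. The DRF groups did not overlap, yet their difference of 1.33 ± 0.54 missed the threshold (adjusted p = 0.072). With the spread estimated from the DRF groups alone, chosen after seeing the data, its standard error was 0.27 and it was called (adjusted p = 0.0014). By ZT0 and ZT24 the DRF groups had dropped to 8.97 ± 0.42 and 9.05 ± 0.28, against 10.21 ± 1.28 and 10.72 ± 0.63 in NRF (SD, n = 4).

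Srebf1 encodes SREBP-1, the insulin-responsive transcription factor of the lipogenic enzymes (chr11:60199089-60222581, minus strand). Counts per gene do not separate its isoforms SREBP-1a and SREBP-1c. Its highest group in NRF was ZT16, at 10.10, 10.06, 9.998 and 10.11, and in DRF ZT4, at 9.88, 9.99, 10.03 and 9.78. Each is the first time point sampled within the food phase after the lights switched, and in both the 4 mice lay close together. At the same clock times the other regimen was low, with 8.93, 9.27, 7.86 and 8.22 at NRF ZT4 and 8.73, 8.71, 8.89 and 9.01 at DRF ZT16, and neither pair of groups overlapped. DRF was higher than NRF by 1.35 ± 0.27 at ZT4 (adjusted p = 0.00020) and lower by 2.35-fold at ZT16 (-1.23 ± 0.27, adjusted p = 0.0012). Of the 5634 exon bases of Srebf1, 109 are shared with Rai1 on the opposite strand, whose reads cannot be told apart there because the kit does not mark strand.

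Mlxipl encodes ChREBP, the sugar-responsive factor of the same enzymes (chr5:135089890-135138382, plus strand). Counts per gene do not separate its isoforms. The NRF mice had 6.66, 5.77, 7.46 and 5.70 at ZT8 and 8.63, 8.32, 8.86 and 8.40 at ZT20, groups that did not overlap. The difference was 2.15 ± 0.40, 4.45-fold (adjusted p = 3.4e-05). In DRF the highest group was ZT12, at 8.63, 7.55, 8.16 and 8.28, and the lowest ZT0, at 6.89, 6.83, 6.57 and 6.16, again without overlap. DRF was lower than NRF by 2.53-fold at ZT20 (-1.34 ± 0.40, adjusted p = 0.011) and by 2.58-fold at ZT24 (-1.37 ± 0.40, adjusted p = 0.012). Without NRF ZT24 replicate 4, the library with liver transcripts, the ZT24 difference was -1.13 and no longer called (adjusted p = 0.064).

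Thrsp encodes Spot 14, a small protein of lipogenic tissues (chr7:97412938-97417730, minus strand). The NRF mice had 11.02, 9.11, 11.89 and 10.42 at ZT8 and 12.87, 12.99, 13.20 and 12.81 at ZT20. The groups did not overlap and differed by 2.36 ± 0.45, 5.13-fold (adjusted p = 5.3e-05). In DRF the groups at ZT8 (11.51, 11.98, 13.02 and 12.76) and ZT20 (12.08, 12.70, 12.76 and 11.98) overlapped and differed by -0.07 ± 0.45 (adjusted p = 0.94). The DRF mice at both times lay above or within the upper part of the NRF ZT8 range.

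Mid1ip1 encodes the Spot 14-related protein MIG12, which binds acetyl-CoA carboxylase and promotes its polymerisation (chrX:10715013-10719690, plus strand). It gave the clearest mirror image of the 10 genes. At NRF ZT8 the mice had 5.01, 4.81, 5.60 and 4.70, and at NRF ZT20 8.06, 8.38, 8.34 and 7.86. At DRF ZT8 they had 7.36, 7.14, 8.37 and 8.18, and at DRF ZT20 5.63, 5.78, 6.27 and 5.74. In each regimen the food-phase mice all lay above the fasted mice, by 3.13 ± 0.34 in NRF (8.75-fold, adjusted p = 2.0e-09) and by 1.91 ± 0.34 in DRF (3.76-fold, adjusted p = 6.8e-05). Of its 2128 exon bases 543 are shared with the antisense gene Gm14493, whose reads could likewise not be told apart from those of Mid1ip1.

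Between regimens at the same clock time, the direction of the calls turned with the time of day for Mid1ip1, Srebf1, Mlxipl and Scd2, while Scd1 had a higher mean in DRF at all 7 times. At ZT0, 1 of the 10 genes was called lower in DRF, Mid1ip1 (-0.98 ± 0.34, adjusted p = 0.039), where 9.49% of all genes tested were called lower. Without DRF ZT0 replicate 4 and DRF ZT8 replicate 1 that difference was -0.96 and not called (adjusted p = 0.061). At ZT4, 7 genes were called higher in DRF, against 18.3% of all genes: Mid1ip1 (2.36 ± 0.34), Scd2 (2.14 ± 0.54), Elovl6 (1.88 ± 0.76), Thrsp (1.80 ± 0.45), Scd1 (1.43 ± 0.54), Srebf1 (1.35 ± 0.27) and Acaca (1.19 ± 0.47). For these 7 and for Fasn, every DRF mouse lay above every NRF mouse, which held for 19.1% of all genes. The count was 3 without the mice numbered 3 or those numbered 4, 4 with no filter on low values, and 5 with CPM per recovered reads or centred on adipocyte markers. Elovl6 was closest to the threshold: it was lost with the replicate block (adjusted p = 0.0508) and without NRF ZT24 replicate 4 (adjusted p = 0.0509), and its difference was 1.06 without the mice numbered 3. Acly differed by 1.92 ± 0.78 and just missed the threshold (adjusted p = 0.052). The median difference over the 10 genes was 1.61 at ZT4, against -0.02 over all genes tested.

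At ZT8, 8 genes were called higher in DRF, against 15.9% of all genes: Scd2 by 15.1-fold (3.92 ± 0.54), Acly by 9.97-fold (3.32 ± 0.78), Elovl6 by 6.72-fold (2.75 ± 0.76), Mid1ip1 by 6.64-fold (2.73 ± 0.34), and Thrsp, Fasn, Mlxipl and Acaca by 2.40-fold to 3.26-fold. Scd2 and Mid1ip1 were the 2 genes whose groups did not overlap, which held for 8.83% of all genes. The range over the 4 mice at NRF ZT8 had a median of 3.08 over the 10 genes, the widest of all groups, and the calls depended on how the spread was estimated. With the spread taken from the 2 groups alone, 2 genes were called, Scd2 and Mid1ip1, where 3.84% of all genes were called higher. Without NRF ZT8 replicate 2, 5 of the 8 were still called, and Acaca, Fasn and Elovl6 were not. The difference was then 2.52 for Acly, 1.32 for Elovl6, 0.61 for Fasn and 0.49 for Acaca. Both alternatives were chosen after seeing the data. Without DRF ZT8 replicate 1 and DRF ZT0 replicate 4 all 10 genes were called, and without all mice numbered 2, or all numbered 4, the count was 2. At ZT12, 3 genes were called higher in DRF, against 15.2% of all genes: Scd2 (3.67 ± 0.54), Mid1ip1 (2.35 ± 0.34) and Mlxipl (1.24 ± 0.40). The call of Mlxipl was lost without the mice numbered 1 (0.97, adjusted p = 0.14) or 4 (1.22, adjusted p = 0.069).

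From ZT16 on the calls were lower in DRF, although most of the 10 means were higher in DRF at ZT16, with a median difference of 0.80. At ZT16, 2 genes were called lower, Mid1ip1 (-1.51 ± 0.34) and Srebf1 (-1.23 ± 0.27), against 9.18% of all genes. Acaca, Fasn, Elovl6, Scd1 and Scd2 lay higher in DRF without overlap between the groups, as did 14.7% of all genes. With the spread of those 2 groups alone, 4 enzymes were called higher in DRF at ZT16, where 13% of all genes were: Elovl6 (1.34), Scd2 (1.16), Acaca (0.97) and Acly (0.90). By that estimate of the spread, 2 regulators were lower and 4 enzymes higher at this time. At ZT20, 3 genes were called lower, against 11.8% of all genes: Mid1ip1 (-2.31 ± 0.34), Mlxipl (-1.34 ± 0.40) and Srebf1 (-0.80 ± 0.27), each without overlap between the groups. Acly, Scd2 and Thrsp also lay lower without overlap, as did 15.4% of all genes. The call of Srebf1 was lost when centred on adipocyte markers (adjusted p = 0.10), on the deposited values (0.073) and without the mice numbered 1, 2 or 4, and that of Mlxipl without those numbered 2 or 4 (0.055 and 0.11). At ZT24, 3 genes were called lower, against 9.89%: Scd2 (-1.68 ± 0.54), Mid1ip1 (-1.66 ± 0.34) and Mlxipl (-1.37 ± 0.40). Without NRF ZT24 replicate 4, or without all mice numbered 4, only Mid1ip1 was still called.

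**Figure D3:**
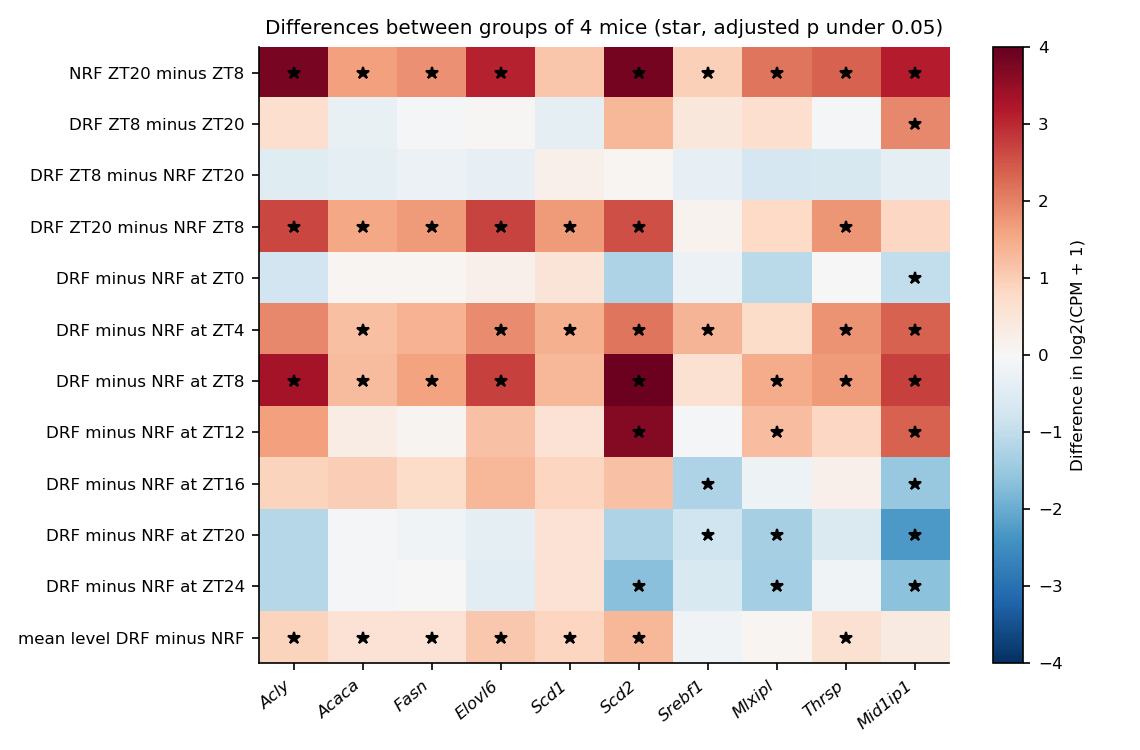
Differences in log2(CPM + 1) for the 10 genes (columns) in each comparison of 2 groups of 4 mice, and in the mean level over the day (rows); colour gives the size and direction from -4 to 4, and a star marks an adjusted p under 0.05. Differences between regimens are red at ZT4 and ZT8, where DRF is higher, and blue for Mid1ip1, Mlxipl and Srebf1 at ZT20, and the row of DRF ZT8 minus NRF ZT20 carries no star.

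Food phase against fasting phase within NRF (ZT20 minus ZT8) called 9 of the 10 genes higher in the food phase, against 20.2% of all genes, and Scd1 was the exception. The median difference over the 10 genes was 2.26, against 0.00 over all genes tested. Without NRF ZT8 replicate 2, 6 genes were still called: Acly, Elovl6, Scd2, Mlxipl, Thrsp and Mid1ip1. The same contrast within DRF (ZT8 minus ZT20) called 1 gene higher, Mid1ip1, against 10.1% of all genes, and the median was 0.25. The difference of these 2 differences was itself tested. It was called lower in DRF than in NRF for 5 genes, against 8.88% of all genes: Acly (-3.14 ± 1.11, adjusted p = 0.047), Elovl6 (-3.03 ± 1.07, adjusted p = 0.047), Scd2 (-2.49 ± 0.76, adjusted p = 0.023), Thrsp (-2.43 ± 0.64, adjusted p = 0.0085) and Acaca (-1.92 ± 0.67, adjusted p = 0.044). Without NRF ZT8 replicate 2 only Thrsp was still called (-1.93). The difference was then -2.34 for Acly, -2.06 for Scd2, -1.60 for Elovl6 and -1.14 for Acaca. Without DRF ZT8 replicate 1 and DRF ZT0 replicate 4 only Scd2 and Thrsp were called. Acly was then at -2.90, Elovl6 at -2.88 and Acaca at -1.70. Without the mice numbered 2 none of the 10 genes was called.

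The regimens were then set side by side by phase of feeding instead of by clock time. In the food phase, DRF ZT8 minus NRF ZT20, none of the 10 genes was called by limma, none had an unadjusted p under 0.05, and none was called with the spread of the 2 groups alone or without the abundance trend. Over all genes 2.51% were called in this comparison. The counts within DRF (1) and in this comparison (0) were the same without DRF ZT8 replicate 1 and DRF ZT0 replicate 4. The 10 differences lay between -0.66 ± 0.40 for Mlxipl and 0.20 ± 0.54 for Scd1. The Mlxipl groups, at 7.27 to 8.26 in DRF ZT8 and 8.32 to 8.86 in NRF ZT20, did not overlap. Those of the other genes did. In the fasting phase, DRF ZT20 minus NRF ZT8, 7 genes were called higher in DRF, against 10.7% of all genes: Elovl6 (2.71 ± 0.76), Acly (2.66 ± 0.78), Scd2 (2.58 ± 0.54), Thrsp (1.77 ± 0.45), Fasn (1.71 ± 0.60), Scd1 (1.71 ± 0.54) and Acaca (1.55 ± 0.47). In means of log2 levels, the DRF mice at ZT20 thus held these 7 transcripts at 2.94-fold to 6.52-fold the level of the NRF mice at ZT8. The ends of that range were Acaca and Elovl6. In mean CPM, which a single low mouse moves less, Acaca was at 4957 and 2496, and Elovl6 at 1663 and 657. Other fasting times were not compared between the regimens in this way. The groups of Thrsp and Scd1 did not overlap, whereas those of Elovl6, Acly, Scd2, Fasn and Acaca did. For Fasn, NRF ZT8 replicate 3 at 14.97 lay above every DRF ZT20 mouse. Srebf1 differed by 0.16 ± 0.27 and Mlxipl by 0.81 ± 0.40, neither of them called.

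That fasting-phase result leaned on NRF ZT8. Without replicate 2 of that group, only Scd2 was called, and the estimates fell to 1.86 for Acly, 1.28 for Elovl6 and 0.71 for Fasn. With the spread of the 2 groups alone, Scd2 and Mid1ip1 were called, where 5.05% of all genes were called higher. NRF ZT8 replicate 2 had the highest mean over 5 macrophage markers of all libraries, at 7.32 against NRF and DRF medians of 6.70 and 6.41, and adipocyte markers at 10.29 against medians of 10.39 and 10.40. The part of these cells in the result was not tested. ZT0 and ZT24, the same clock time, showed no called difference for any of the 10 genes in NRF or in DRF by limma, and none with an unadjusted p under 0.05. Over all genes 0.311% were called in NRF and 0.114% in DRF, so the lack of calls is near the share over all genes.

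Rhythms of 24 h were tested within each regimen in the manner of MetaCycle, which merges the p-values of a rank test (JTK_CYCLE) and a periodogram (Lomb-Scargle) by Fisher's method. This combination treats both p-values as independent and is therefore too liberal, so limma's F test of a 24-h cosine is given beside it. In NRF 9 of the 10 genes were rhythmic, against 63.6% of all genes, with Fasn the exception (adjusted p = 0.17). The F test also called 9, against 52.5%, there including Fasn (adjusted p = 0.023) but not Scd1 (adjusted p = 0.094). In DRF 6 were rhythmic, against 47.6% of all genes: Acly, Elovl6, Scd2, Srebf1, Mlxipl and Mid1ip1. The F test called 4 of these, against 42.6%, without Acly (adjusted p = 0.11) and Elovl6 (adjusted p = 0.52). Acaca, Fasn, Scd1 and Thrsp passed neither test in DRF. When centred on adipocyte markers all 10 genes passed the combined test. The share of all genes that passed after this centring is not given here, so that count cannot be set against it.

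The difference in rhythm between regimens, an interaction of regimen with the cosine in limma, was called for 7 genes, against 54% of all genes. The smallest adjusted p-values were those of Mid1ip1 (2.6e-16), Scd2 (1.4e-12) and Mlxipl (1.3e-08), followed by Srebf1 (2.6e-07), Acly (4.3e-05), Thrsp (0.00015) and Elovl6 (0.01). Acaca (adjusted p = 0.16), Fasn (0.14) and Scd1 (0.49) were not called. Thus for Acaca, Fasn and Scd1 the lack of a called rhythm in DRF was not shown to differ from NRF.

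In NRF the fitted peaks of the 9 rhythmic genes lay between ZT17.5 ± 0.57 h for Srebf1 and ZT20.7 ± 0.40 h for Scd2 (SE). In DRF the peaks of the 6 rhythmic genes were more scattered, from ZT6.96 ± 0.89 h for Srebf1 and ZT7.87 ± 0.44 h for Mid1ip1 to ZT11.2 ± 0.71 h for Scd2, ZT11.9 ± 0.83 h for Mlxipl and ZT12.7 ± 3.37 h for Elovl6. Among the 6 genes rhythmic in both regimens, a phase shift was called for 5, where 90.5% of the 5578 genes rhythmic in both were called. Mid1ip1 shifted by 11.8 ± 0.55 h and Srebf1 by 10.5 ± 1.06 h, close to a full inversion. Scd2 shifted by 9.55 ± 0.82 h, Acly by 8.88 ± 1.91 h and Mlxipl by 7.53 ± 0.96 h, and Elovl6 differed by 7.10 ± 3.48 h without being called (adjusted p = 0.078). The amplitude difference was called for 1 gene, Thrsp, against 3.23% of all genes, with an amplitude of 1.14 ± 0.18 in NRF and 0.12 ± 0.16 in DRF (adjusted p = 0.0093). No amplitude difference was called (0 genes) without the mice numbered 2, 3 or 4 or when centred on adipocyte markers. Fitted peak-to-trough ratios were lower in DRF than in NRF for each of the 10 genes, for example 2.56-fold against 10.4-fold for Acly and 1.19-fold against 4.86-fold for Thrsp. The share of all genes with a lower ratio in DRF is not given here.

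**Figure D4:**
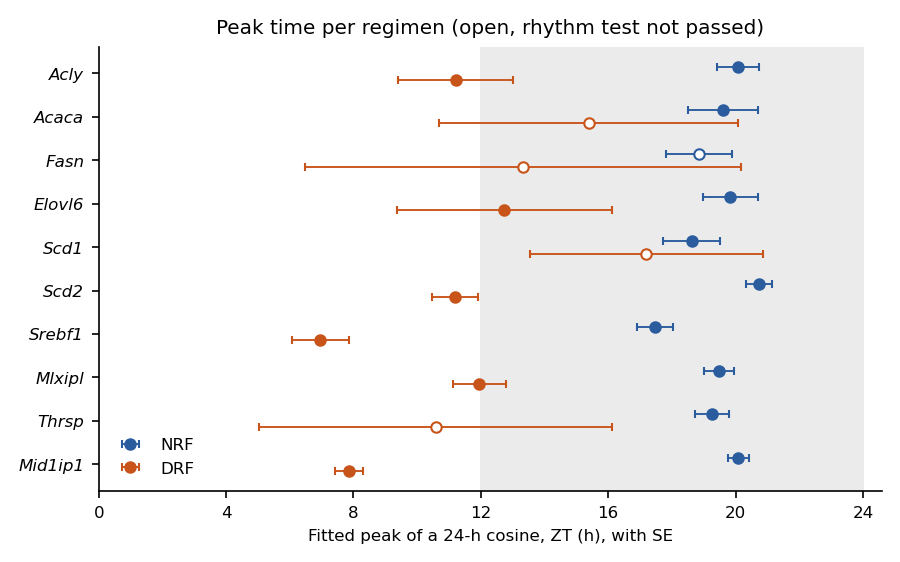
Fitted peak time in ZT hours (horizontal axis) of each gene (vertical axis) in NRF and DRF, with bars of 1 SE; open symbols did not pass the combined rhythm test and grey marks the dark phase. The NRF peaks lie together between ZT17.5 and ZT20.7, and the DRF peaks of Srebf1 and Mid1ip1, at ZT6.96 and ZT7.87, come before those of Scd2 and Mlxipl.

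Averaged over the day, 7 genes were called higher in DRF, against 18.8% of all genes called higher, and none lower, against 17.4%. Scd2 was higher by 1.32 ± 0.21 (adjusted p = 1.6e-06), Elovl6 by 1.07 ± 0.29 (adjusted p = 0.0029), Acly by 0.90 ± 0.29 (adjusted p = 0.014) and Scd1 by 0.86 ± 0.19 (adjusted p = 0.00038). Thrsp (0.61 ± 0.17), Fasn (0.58 ± 0.23) and Acaca (0.58 ± 0.18) followed. The call of Acly was lost on linear CPM (adjusted p = 0.29), where its mean was 1330 CPM per kb in DRF and 1193 in NRF, and without the mice numbered 1 (adjusted p = 0.11). That of Acaca was lost without the mice numbered 1 (adjusted p = 0.058). The transcription factors were not, with Mlxipl at 0.09 (adjusted p = 0.65) and Srebf1 at -0.14 (adjusted p = 0.35), and Mid1ip1 at 0.35 just missed the threshold (adjusted p = 0.0503). The median over the 10 genes was 0.60, against 0.00 over all genes tested. Markers of other cells moved with regimen: the median over libraries was 6.41 in DRF and 6.70 in NRF for macrophage, 6.86 and 7.11 for adipose progenitor, 5.66 and 6.00 for mesothelium, and 6.43 and 5.73 for red cell markers. Their part in the result was not tested. The calls of Scd2, Elovl6 and Thrsp held under each of the alternatives run for the mean level, which did not include the spread of the compared groups alone. That of Fasn was lost without NRF ZT8 replicate 2 (0.42, adjusted p = 0.07) and in several other settings. These were linear CPM (adjusted p = 0.9998), no filter (0.24) and the fit without ZT24 (0.055). It was also lost whichever replicate number was left out, with adjusted p from 0.067 to 0.13.

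Pooled over the 7 times, the mice of a group differed more in NRF than in DRF, but not at every time. At ZT20 the order was the reverse, with a median range over the 10 genes of 0.39 in NRF and 0.79 in DRF. The pooled SD within groups was 1.55 in NRF and 0.50 in DRF for Acly, 1.52 and 0.45 for Elovl6, 1.09 and 0.34 for Fasn, 1.05 and 0.40 for Scd2 and 0.90 and 0.36 for Acaca. It was larger in NRF for all 10 genes, where this held for 37.9% of the 10278 genes with a mean level of at least 3, whose median ratio was 0.91. The ratio was at least 2 for 5 of the 10 genes and for 73 of the 10278, 0.71% of them. Ranked by this ratio among the 10278 genes, Elovl6 was the first, Fasn the second and Acly the third, Scd2 ranked 5 and Acaca 10. These values are given as a description without a test.

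Within a group the same mouse was often lowest for most of the genes. A single mouse was lowest for at least 8 of the 10 genes in 4 of the 7 NRF groups and in 6 of the 7 DRF groups. Among the DRF mice were ZT0 replicate 4 and ZT8 replicate 1, each lowest for 9 genes, the libraries low in adipocyte and high in epithelial transcripts. How often this holds for other sets of genes is not given here. At NRF ZT0, NRF ZT4 and NRF ZT12 a single mouse was lowest for all 10 genes: replicate 1, replicate 3 and replicate 1. The same held for DRF ZT12 replicate 2. Acly was at 9.66 in NRF ZT0 replicate 1, against 12.87 to 13.86 in the other mice of that group. It was at 8.48 in NRF ZT4 replicate 3, against 10.86 to 13.16, and at 8.97 in NRF ZT12 replicate 1, against 11.86 to 12.78. At NRF ZT8, replicate 3 was highest for all 10 genes and replicate 2 lowest for 8. In contrast, the 4 mice of NRF ZT20 stayed within 0.53 of each other for every gene. Adipocyte markers in the 3 low NRF mice of ZT0, ZT4 and ZT12 were at 10.44, 10.44 and 10.45, near the NRF median of 10.39. Their macrophage markers were at 6.31, 6.85 and 6.58, against a median of 6.70. The part of these markers in the spread was not tested. When a mouse last ate was not recorded in the sources used here.

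**Figure D5:**
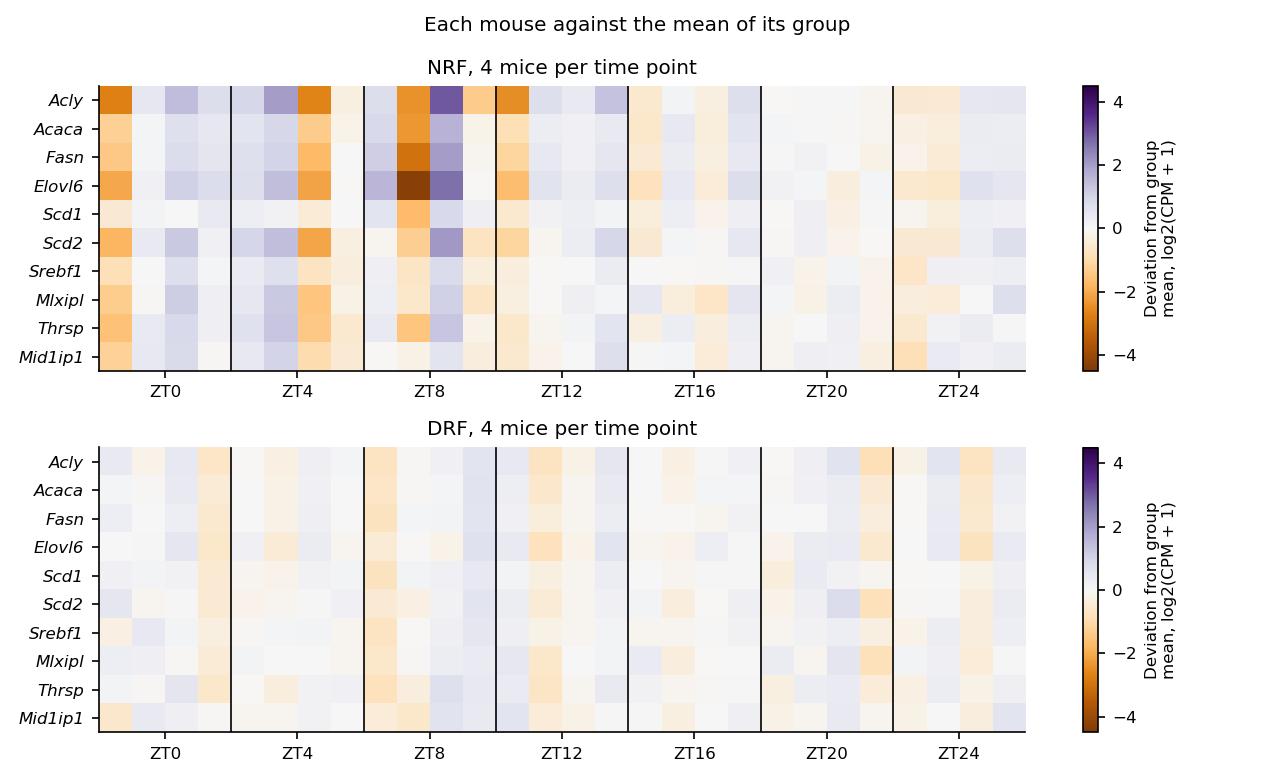
Deviation of each mouse from the mean of its group in log2(CPM + 1), as colour, for the 10 genes (vertical axis) and the 4 mice of each time point in replicate order (horizontal axis), NRF above and DRF below. Whole columns share a colour in NRF at ZT0, ZT4, ZT8 and ZT12, as in ZT8 replicates 2 and 3, while NRF ZT20 and the DRF groups are pale.

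The other genes of the pathway were taken from lists of enzymes that supply citrate, acetyl-CoA and NADPH, of other acyl chain enzymes, and of regulators of SREBP and ChREBP. Of the 10 supply genes, 9 were called higher in DRF on average over the day (18.8% of all genes) and 7 were called higher in the NRF food phase (20.2%). Acss2, which makes acetyl-CoA from acetate, was higher in DRF by 1.01 ± 0.22, the malic enzyme gene Me1 by 0.93 ± 0.23, and the pentose phosphate enzymes Pgd and G6pdx by 0.63 ± 0.14 and 0.63 ± 0.09. The citrate carrier gene Slc25a1 was higher by 0.58 ± 0.16, and Pdhb, Cs and Pdha1 by 0.32 to 0.50. Idh1 differed by 0.07 ± 0.07 and was not called. The rhythm difference was called for 6 of the 10, near the 54% of all genes, with the lowest adjusted p-values for Pgd, Acss2 and G6pdx, and by the combined test 8 were rhythmic in NRF (63.6% of all genes) and 2 in DRF (47.6%).

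Of 13 other acyl chain genes, 12 were tested and Scd4 was too low. On average over the day 7 were called higher in DRF (18.8% of all genes) and 2 lower (17.4%). Elovl3 (1.01 ± 0.25), a very long chain elongase of brown fat, and Scd3 (0.96 ± 0.16), a further desaturase, were highest. Scd3 was low, at a mean level of 3.16 in NRF and 4.12 in DRF, and shares sequence with the other Scd genes, so reads of Scd1 could be counted there. Tecr, Hsd17b12 and Hacd2, which complete each round of elongation, were higher by 0.40 to 0.50, and Fads2 and Elovl1 by 0.38 and 0.32. Elovl5 (-0.28 ± 0.07) and Hacd3 (-0.10 ± 0.04) were lower. The lowest adjusted p-values of the rhythm difference were those of Acsl1, Elovl1 and Hacd3. Acsl1, the acyl-CoA synthetase of adipocytes, ran the other way from the lipogenic genes and was lower in the food phase in NRF (-1.003 ± 0.19) and in DRF (-1.06 ± 0.19).

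Of 12 regulators, 7 had a called rhythm difference, near the 54% of all genes, with the lowest adjusted p-values for Srebf2, Insig1 and Nr1h2. Insig1, which holds SREBPs in the endoplasmic reticulum, rose in the food phase in NRF (2.13 ± 0.34) and in DRF (1.39 ± 0.34), as did Srebf2, the sterol-responsive SREBP gene (0.54 ± 0.09 and 0.53 ± 0.09). Nr1h2, which encodes LXR beta, was lower in the food phase in both (-0.47 ± 0.07 and -0.20 ± 0.07). Pnpla3, a known SREBP-1c target, was higher in the NRF food phase by 2.36 ± 0.34 and differed by 0.46 ± 0.34 in DRF without being called. On average over the day, Pnpla3 (0.66 ± 0.13), Insig1 (0.64 ± 0.15), Mbtps2 (0.14 ± 0.04) and Fbxw7 (0.11 ± 0.04) were called higher in DRF, and Nr1h2 (-0.08 ± 0.03) lower.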

How the data were processed

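Poly(A) RNA libraries were prepared with a kit that does not mark strand. Per the labels, and as the submitters' processing notes list them, HISAT2 2.0.5, featureCounts 1.5.0-p3 and the build mm10 were used. The deposited values, which the authors named TPM, were a score on a transformed scale: log2(CPM + 1) divided by exon length and scaled per library. From them log2(CPM + 1) and read counts were recovered, and 99.9% of 1262086 values at or below 10000 reads came within 0.02 of a whole number. This score is not a TPM, so levels between genes were compared as CPM per kb. For 876 genes, Scd2 among them, the exon length was one that made the reads whole. Scd1 could not be resolved in this way, and its reads were not checked. Its longest annotated transcript (4832 bases) was used, against 4892 bases for all its exons. With the longer length all 61 called values stayed called. Depth was 33434918 to 45136762 reads on genes per library.

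Groups were taken from the labels (4 mice per regimen and time). Genes with a mean of at least 0.5 CPM were tested on log2(CPM + 1) with a pseudocount of 1, using limma 3.58.1 in R 4.3.3, with an abundance trend, 14 group means or a 24-h cosine per regimen, and Benjamini-Hochberg adjustment over all 15738 genes at 0.05. Rhythm tests, cosine fits of phase and amplitude and figures used Python 3.11.15, scipy 1.17.1 and matplotlib 3.10.9. Scripts were tested on simulated data. The members, the lists of other pathway genes and of cell type markers, and the tests were chosen with earlier results of these data known. Other pathway genes were named where they had one of the 3 lowest adjusted p-values of the rhythm difference in their list or a called mean level. The values of 1 gene of these lists are not reported here. Alternatives were another scaling, pseudocount and filter, a replicate block, libraries left out and, chosen after seeing the data, other estimates of the spread. Fits with the spread of the compared groups alone kept the abundance trend, which weighs most on very abundant genes such as Scd1. P-values measure the spread between mice. Promoters came from RefSeq (GRCm38.p6).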

Additional observations from a re-analysis of the deposited data

Results flagged for a closer look

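In 7 of the 140 groups of 4 mice (10 genes in 14 groups), the lowest mouse lay farther from the next than a test for a single stray value allows, where chance flags about 1 in 20 groups. They were Acaca at 11.02, Elovl6 at 8.31 and Scd1 at 15.20 in NRF ZT12 replicate 1, Elovl6 at 10.68 in NRF ZT20 replicate 3, Scd1 at 15.59 in DRF ZT0 replicate 4, and Srebf1 at 8.93 and Mid1ip1 at 6.75 in NRF ZT24 replicate 1, all as log2(CPM + 1). DRF ZT0 replicate 4 is also a library with few adipocyte and many epithelial transcripts, and the part of these cells in its Scd1 level was not tested.

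The food-phase minus fasting-phase difference was called lower in DRF than in NRF for Acly (-3.14), Elovl6 (-3.03), Scd2 (-2.49), Thrsp (-2.43) and Acaca (-1.92). These values are on the log2 scale, and 8.88% of all genes were called lower in this contrast. Without NRF ZT8 replicate 2, an alternative chosen after seeing the data, only Thrsp was still called (-1.93). Acly was then at -2.34, Scd2 at -2.06, Elovl6 at -1.60 and Acaca at -1.14. Without the mice numbered 2 none of these genes was called. The rhythm differed between the regimens, by limma's interaction test, for Mid1ip1 (adjusted p = 2.6e-16), Scd2 (1.4e-12), Mlxipl (1.3e-08), Srebf1 (2.6e-07), Acly (4.3e-05), Thrsp (0.00015) and Elovl6 (0.01). By the same test 54% of all genes were called.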

How the results depend on the processing

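No called value reversed under any of 18 settings: of 973 recomputations of 61 called values, 823 stayed called and 150 did not. Counts of the 10 genes called moved as follows. The share of all genes under each of these settings is not given in this section. With CPM per recovered reads they were 2 at ZT0, 2 for DRF ZT8 minus ZT20 and 3 for the difference of the food-phase differences. Centred on adipocyte markers they were 0 at ZT0, 5 at ZT16, 1 for the difference of differences, 4 for DRF ZT20 minus NRF ZT8, 10 rhythmic in DRF and 0 with an amplitude difference. With no filter they were 0 at ZT0, 4 at ZT4 and 2 for the difference of differences. With the spread of the compared groups alone, or of the regimen for comparisons within it, they were 0 at ZT0, 2 at ZT8, 6 at ZT16, 5 at ZT20, 2 for DRF ZT8 minus ZT20 and 2 for DRF ZT20 minus NRF ZT8.

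With libraries left out, each range gives the lowest and highest count. It was 0 to 3 at ZT0, 3 to 9 at ZT4, 2 to 10 at ZT8, 2 to 3 at ZT12, 2 at ZT16 throughout, 1 to 4 at ZT20 and 1 to 3 at ZT24. It was 5 to 9 for NRF ZT20 minus ZT8, 1 to 2 for DRF ZT8 minus ZT20, 0 to 6 for the difference of differences, 0 to 7 for DRF ZT20 minus NRF ZT8, 4 to 8 for the mean level, 6 to 9 rhythmic in NRF, 4 to 6 in DRF, 4 to 6 for the phase shift, 6 to 7 for the rhythm difference and 0 to 1 for the amplitude. Without NRF ZT8 replicate 2 the counts were 5 at ZT8, 6 for NRF ZT20 minus ZT8 and 1 for DRF ZT20 minus NRF ZT8. The cause of these changes was not tested. Replicate numbers did not pair the mice (28 pairs, r from -0.28 to 0.33), and with the replicate block only Elovl6 at ZT4 was lost (1.88, adjusted p = 0.0508, limma). The mean level of Fasn was lost in several settings (adjusted p = 0.0548 without ZT24, limma), and those of Scd1 and Fasn with no filter. Each group held 4 mice.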

Other observations

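Genes outside the pathway followed the mean profile of the 10 genes closely over the 14 group means. The highest Pearson correlations, given as a description of genes measured in the same libraries, were those of Gnptab, Slc2a5, Acat2 and Gpd2 (each 0.98). Slc2a5 encodes the fructose transporter GLUT5, and Gpd2 the mitochondrial glycerol-3-phosphate dehydrogenase. Acat2 and Cyp51 (0.96) are genes of sterol synthesis or its precursors. Of the 10 genes themselves, each of which is part of that mean, Acly was closest to it (0.98) and Srebf1 farthest (0.63).

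Between ZT0 and ZT24, the same clock time sampled a day apart, the differences in NRF ran from 0.18 for Scd1 to 0.73 for Elovl6, and in DRF from -0.44 for Mid1ip1 to 0.30 for Acly, on the log2(CPM + 1) scale.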
